A study of Sus scrofa with 13 samples.

Results

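An egg is loaded with messenger RNA that must be kept silent, switched on at the right time and destroyed once the embryo makes its own messages. This is an account of 10 genes whose products do that work: BTG4, CNOT6L, CPEB1, PABPC1L, EIF4E1B, ZAR1, ZAR1L, YBX2, LSM14B and PATL2. They were taken by symbol from a gene table of 28232 genes on the pig build Sscrofa11.1, and 9 of the 10 had a row under that symbol. PATL2 did not and was not analysed here. Pools of pig (Sus scrofa) embryos from 3 stages had their messenger RNA sequenced. Embryos made by in vitro fertilisation (IVF) were taken as 4-cell embryos, blastocysts and hatched blastocysts (3 libraries each). Embryos that had developed in vivo were taken as blastocysts and hatched blastocysts (2 libraries each). No 4-cell embryos from in vivo development were among the libraries, so the earliest stage was known only after IVF. No strain, breed, treatment, embryo age or pool size was given in the sources used here, and stage and origin were the only labels that differed between the groups. At hatching the blastocyst slips out of the zona pellucida, the coat laid down around the egg.

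Stored messages in an egg carry short poly(A) tails and are held in protein particles that keep them stable and untranslated. CPEB1 marks such messages for tail extension, PABPC1L covers the new tail, and translation starts at the cap, where EIF4E1B is the egg's own cap-binding protein. At the transition from maternal to embryonic control the tails are removed by the CCR4-NOT deadenylase, which BTG4 brings to maternal messages in the mouse and of which CNOT6L is a catalytic subunit. The libraries were made from RNA captured on oligo(dT) beads, so a change in the amount of a message and a change in its tail length cannot be told apart. Nor can fewer cells of a type be told apart from less of the message per cell.

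Each library held 33259311 to 39273867 counts, and 14221 to 16735 genes had at least 1 count. Levels of 1 gene are given as CPM, its counts scaled to a common library total, and 3 counts, taken as the floor, equal 0.0764 to 0.0902 CPM. The stage labels were checked against marker lists. The 12 egg markers in the table summed to 0.362 to 12.4 CPM in the blastocyst and hatched libraries, against 23920 to 38760 CPM in the 4-cell libraries. The 12 blastocyst markers summed to 21700 to 40630 CPM in the blastocyst and hatched libraries, against 957 to 1332 CPM in the 4-cell libraries, where CDX2 and KRT18 were at 0. Not every marker of this list followed the sum. ATP1B1 had a mean of 2.01 CPM in 4-cell embryos and means of 0.385 to 1.15 CPM in the later groups, and was at 0 in in vivo hatched library 2. SOX2 was at 0 in IVF blastocyst library 2. The 12 cumulus and granulosa markers in the table summed to 896 to 1873 CPM in the blastocyst and hatched libraries and to 19.8 to 33.7 CPM in the 4-cell libraries, where AMH, CYP11A1, FOXL2, FSHR and INHA were at 0. In the later libraries that sum was mostly PTGS2 (705 to 1858 CPM), while AMH, CYP19A1, FOXL2, FSHR, INHA, PTX3 and TNFAIP6 were each at 0.840 CPM or less there, and FSHR was at 0 in every library. Other markers of this list were detected there. STAR had counts in every later library. CYP11A1 was at 0 only in in vivo blastocyst library 1, and VCAN only in IVF blastocyst library 2 and IVF hatched library 3. Lists for oviduct and uterus (3.90 to 26.7 CPM), blood (3.76 to 20.1 CPM) and sperm (0.188 to 4.12 CPM) were low throughout. The 4-cell library 1 stood apart from the other 4-cell libraries. Fold changes over 4-cell embryos that passed the test described below are given both ways where they move by over 1.5 times without it. Those of related genes that did not pass are given with all libraries only. It held the lowest of the 3 values for 7 of the 9 genes (77.8%), against 42.9% of the 14048 genes with a mean of at least 1 CPM at this stage.

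The 4-cell embryo was where nearly all of these messages were found. Together the 9 genes took between 0.00128% and 0.00355% of the counts of any blastocyst or hatched library, against 0.153%, 0.486% and 0.360% of the counts of the 4-cell libraries 1, 2 and 3. Levels between genes are compared on the deposited FPKM scale, which accounts for gene length. BTG4 was the most abundant, at 1547 ± 1153 FPKM (SD, n = 3), and ranked 148, 20 and 42 among all genes in libraries 1, 2 and 3. ZAR1L (215 ± 115 FPKM), CPEB1 (172 ± 35.3 FPKM), EIF4E1B (171 ± 85.4 FPKM) and PABPC1L (119 ± 29.8 FPKM) came next, followed by ZAR1 (16.2 ± 13.8 FPKM), YBX2 (15.3 ± 6.4 FPKM), CNOT6L (7.49 ± 2.74 FPKM) and LSM14B (2.64 ± 2.42 FPKM). The ranges of neighbours in this order overlapped, except that BTG4 (447 to 2746 FPKM) lay above ZAR1L (89.0 to 313 FPKM) and PABPC1L (94.8 to 152 FPKM) lay above ZAR1 (3.51 to 30.9 FPKM).

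**Figure D1:**
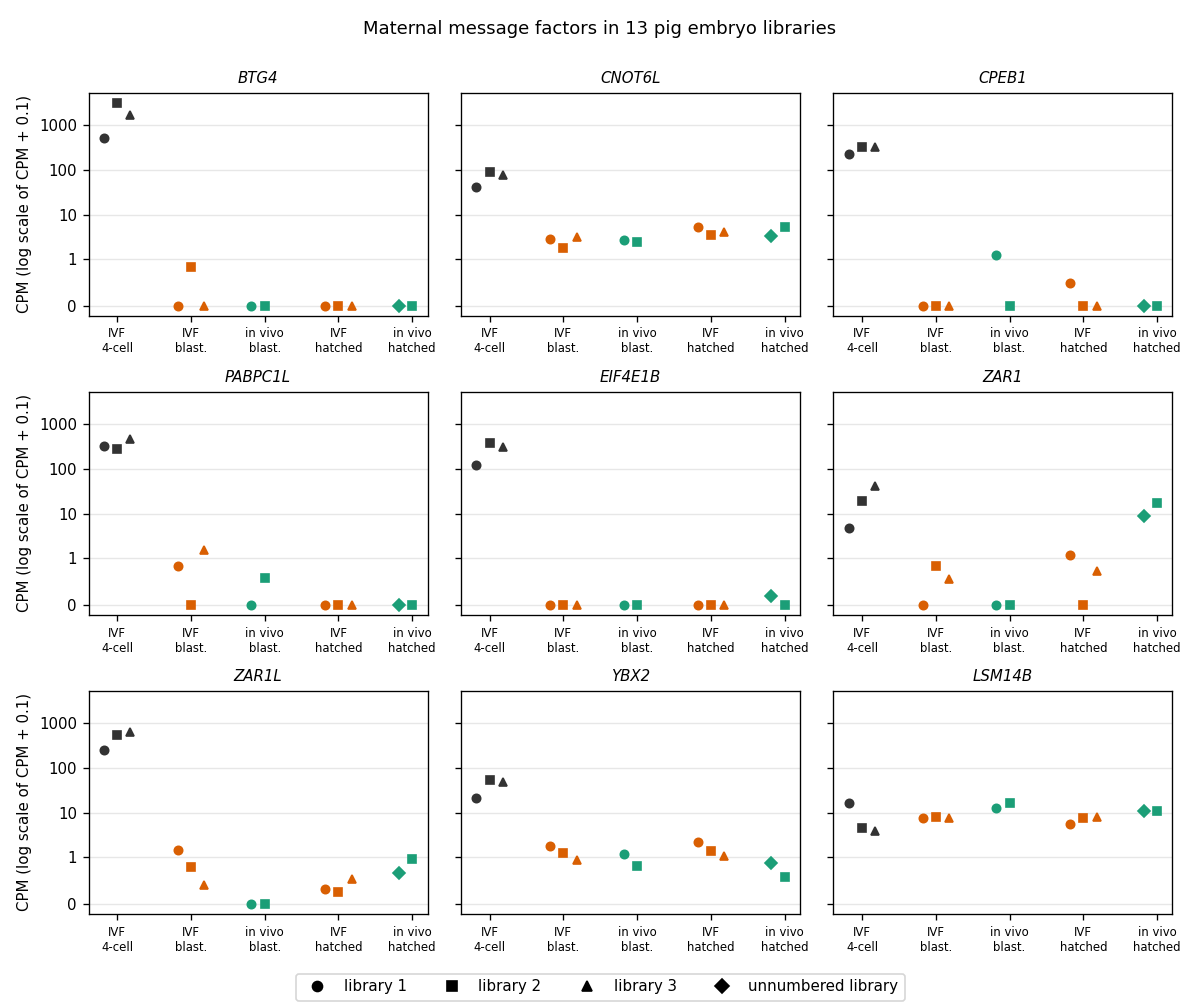
Level of each of the 9 genes in each of the 13 libraries, in CPM on a logarithmic scale with 0.1 added (1 point per library, symbols for library numbers, black for IVF 4-cell, orange for IVF and green for in vivo embryos). In 8 panels the 3 four-cell points lie above every IVF blastocyst and IVF hatched point; in the LSM14B panel they do not, and in the ZAR1 panel the in vivo hatched libraries reach 9.31 and 17.7 CPM.

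BTG4, the adaptor that in the mouse brings the deadenylase to maternal messages, lies on chromosome 9 at 39253116 to 39281327 (gene 100514308). It had 510.0, 3137 and 1665 CPM in the 4-cell libraries 1, 2 and 3. In IVF blastocysts it had 0, 0.619 and 0 CPM, and it was at 0 counts in all IVF hatched, in vivo blastocyst and in vivo hatched libraries. A single IVF blastocyst library, number 2, therefore held all the BTG4 counts found after the 4-cell stage. The fold change of IVF blastocysts over 4-cell embryos was -12.84 ± 2.04 on the log2 scale (SE, edgeR quasi-likelihood test with Benjamini-Hochberg adjustment over all genes, adjusted p = 0.002), and IVF hatched blastocysts were at least 21700-fold lower than 4-cell embryos when 3 counts per library were put in place of 0 (adjusted p = 0.00124). Without IVF blastocyst library 2 no count was left in that group, and without IVF blastocyst library 1 or 3 or 4-cell library 2 the log2 value was -12.24, -12.25 or -12.13. The span of BTG4 overlaps that of C9H11orf88 over 2440 bases. All adjusted p-values below come from the same test, and a gene is said to have risen, fallen or been called where that value was under 0.05.

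CNOT6L, a catalytic subunit of the CCR4-NOT deadenylase (gene 100512848, chromosome 8, 73191721 to 73335779), had 42.4, 93.1 and 79.0 CPM in 4-cell embryos. It had 2.93, 1.78 and 3.22 CPM in IVF blastocysts and 5.39, 3.62 and 4.25 CPM in IVF hatched blastocysts. It fell in both, by -4.56 ± 0.52 (adjusted p = 0.000196) and -3.78 ± 0.50 (adjusted p = 0.000402) against 4-cell embryos. Unlike BTG4 it was not lost: every library of every group held at least 69 counts of it, and the in vivo libraries had 2.73 and 2.43 CPM as blastocysts and 3.48 and 5.33 CPM as hatched blastocysts. Its span overlaps that of MRPL1, a mitochondrial ribosome gene, over 30336 bases. MRPL1 had 73.8 to 236 CPM in the blastocyst and hatched libraries and 5.55 to 33.8 CPM in the 4-cell libraries. Whether strand was used in counting was not given in the sources used here, so the low CNOT6L values of the later stages are uncertain.

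CPEB1, which binds the cytoplasmic polyadenylation element of stored messages (gene 100048944, chromosome 7, 52329054 to 52382408), had 227, 335 and 331 CPM in 4-cell embryos. It was at 0 in all IVF blastocyst libraries and had 0.225, 0 and 0 CPM in IVF hatched blastocysts. Its level was thus at least 3780-fold lower in IVF blastocysts than in 4-cell embryos (adjusted p = 0.000417), and the log2 fold change of IVF hatched blastocysts was -11.68 ± 1.39 (adjusted p = 0.000595), which rests on 8 counts in hatched library 1 and was -11.09 and -11.08 without hatched libraries 2 and 3. Among in vivo libraries it was found only in blastocyst library 1, with 47 counts (1.21 CPM).

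PABPC1L, the poly(A)-binding protein of eggs and early embryos (gene 100151962, chromosome 17, 47321259 to 47351905), had 328, 287 and 460 CPM in 4-cell embryos, a narrow spread beside that of BTG4. It had 0.611, 0 and 1.57 CPM in IVF blastocysts and none in IVF hatched blastocysts. In IVF blastocysts it fell by -8.75 ± 1.48 (adjusted p = 0.00259), and against 4-cell embryos it was at least 4390-fold lower in IVF hatched blastocysts (adjusted p = 0.000917). Without IVF blastocyst library 3, which held 57 of the 81 counts of its group, the first of these was -9.94, and without library 2 it was -8.06. In vivo, 11 counts in blastocyst library 2 were all that was found.

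EIF4E1B, the egg-type relative of the cap-binding protein eIF4E (gene 100523233, chromosome 2, 81277086 to 81281668), had 123, 381 and 319 CPM in 4-cell embryos. No count was found in any IVF blastocyst or IVF hatched library, nor in in vivo blastocysts, and the unnumbered in vivo hatched library held 2 counts. It was at least 3480-fold lower in IVF blastocysts (adjusted p = 0.000468) and at least 3360-fold lower in IVF hatched blastocysts (adjusted p = 0.000472), each against 4-cell embryos. It was the gene of the 9 with the fewest counts outside the 4-cell stage.

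ZAR1 and ZAR1L are RNA-binding zinc-finger proteins that hold messages in the egg. ZAR1L (gene 100156191, chromosome 11, 8795478 to 8805876) was the more abundant in 4-cell embryos, with 89.0, 243 and 313 FPKM, against 3.51, 14.2 and 30.9 FPKM for ZAR1 (gene 574050, chromosome 8, 38386520 to 38391618). ZAR1L had 257, 542 and 654 CPM in 4-cell embryos, 1.43, 0.542 and 0.165 CPM in IVF blastocysts and 0.112, 0.0776 and 0.248 CPM in IVF hatched blastocysts. It fell by -9.22 ± 1.01 in IVF blastocysts (adjusted p = 0.000159) and by -11.46 ± 1.11 in IVF hatched blastocysts (adjusted p = 8.57e-05). The value for blastocysts was -10.20 without IVF blastocyst library 1.

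ZAR1 had 4.95, 19.7 and 42.9 CPM in 4-cell embryos, 0, 0.619 and 0.275 CPM in IVF blastocysts and 1.15, 0 and 0.469 CPM in IVF hatched blastocysts. Relative to their mean the 4-cell values spread more than for any other of the 8 genes that fell, yet the lowest of them lay above every IVF blastocyst and IVF hatched value. ZAR1 fell by -6.11 ± 1.84 in IVF blastocysts (adjusted p = 0.0194) and by -5.25 ± 1.76 in IVF hatched blastocysts (adjusted p = 0.0302). It is the least firm of these calls. Without 4-cell library 3 the values were -5.04 (adjusted p = 0.0568) and -4.17 (adjusted p = 0.0898), without IVF blastocyst library 3 the first was -6.03 (adjusted p = 0.0697), and without IVF hatched library 1, 2 or 3 the second was -6.44, -4.65 or -5.13 (adjusted p = 0.0513, 0.0608 and 0.097). Without IVF blastocyst library 1 or 2 the value for blastocysts was -5.51 or -7.13 and was still called.

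YBX2, the germ-cell Y-box protein that in the mouse packages and stabilises messages (gene 100519387, chromosome 12, 52635383 to 52642443), had 22.1, 55.9 and 48.5 CPM in 4-cell embryos. It had 1.83, 1.27 and 0.824 CPM in IVF blastocysts and 2.25, 1.35 and 1.02 CPM in IVF hatched blastocysts. It fell by -4.81 ± 0.65 (adjusted p = 0.000454) and -4.54 ± 0.64 (adjusted p = 0.000561). Like CNOT6L it stayed detectable in every library, with 11 to 80 counts after the 4-cell stage.

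LSM14B, a component of messenger ribonucleoprotein particles that in the mouse is needed for oocyte maturation (gene 100626826, chromosome 17, 61553953 to 61566504), was the exception. It had 16.6, 4.60 and 4.01 CPM in the 4-cell libraries, 7.74, 8.05 and 7.83 CPM in IVF blastocysts and 5.87, 7.71 and 8.14 CPM in IVF hatched blastocysts. The later libraries lay between the high 4-cell library 1 and the other 4-cell libraries. The log2 fold changes over 4-cell embryos were 0.26 ± 0.54 (adjusted p = 0.707) and 0.18 ± 0.54 (adjusted p = 0.795), and neither passed the test. Without 4-cell library 1 they were 1.13 (adjusted p = 0.0234) and 1.04 (adjusted p = 0.0315), both called higher. With libraries scaled by their size only they were -0.10 and -0.22, while the median of all genes moved from -0.23 to -0.50 and from -0.24 to -0.55. Its span overlaps PSMA7, a proteasome gene, over 132 bases, and a long non-coding RNA over 292 bases.

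**Figure D2:**
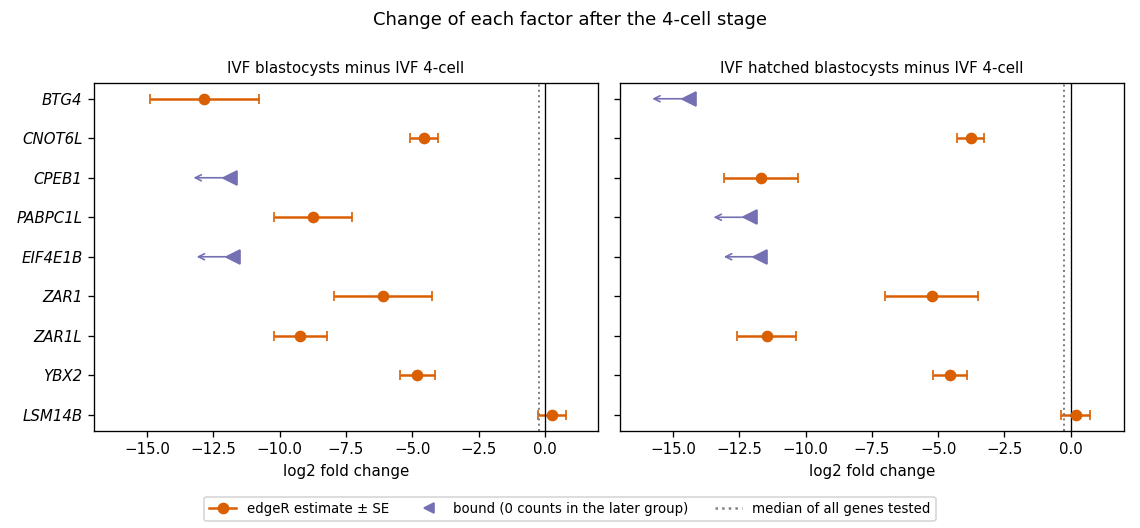
Log2 fold change of each gene in IVF blastocysts (left) and IVF hatched blastocysts (right) over IVF 4-cell embryos. Orange points are edgeR estimates with bars of 1 SE, purple triangles with arrows are bounds for genes at 0 counts in the later group (3 counts per library in place of 0), and the dotted line is the median of all genes tested. Points for 8 genes lie between -3.78 and -14.41, and LSM14B lies at 0.26 and 0.18.

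Over the 9 genes, 8 fell and none rose in IVF blastocysts against 4-cell embryos, where 30.6% of the 16312 genes tested were called lower and 25.7% higher. The same 8 fell in IVF hatched blastocysts, where 30.9% of all genes were called lower. Both comparisons share the 4-cell libraries. Of the 8, BTG4, CPEB1, EIF4E1B, ZAR1L and PABPC1L reached 10 counts in fewer than 3 of the 6 later IVF libraries. They passed the filter on low counts through the 4-cell libraries, so their calls could only be in this direction and the count of 8 is a description. Of the 4 genes that were free to move either way, ZAR1, CNOT6L and YBX2 fell and LSM14B was not called. Without 4-cell library 1 the 8 genes fell likewise and LSM14B rose.

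Most of these genes have a close relative that is used in other cells. On the FPKM scale PABPC1L stood at 0.244 ± 0.268 and PABPC1 at 49.0 ± 11.4 in IVF blastocysts (n = 3), whereas in 4-cell embryos PABPC1L stood at 119 ± 29.8 and PABPC1 at 2.03 ± 2.34 (n = 3). PABPC1, the general poly(A)-binding protein, rose by 4.96 ± 0.76 in IVF blastocysts against 4-cell embryos (adjusted p = 0.000825), and by 6.37 without 4-cell library 1. EIF4E1B stood at 0 and EIF4E at 102 ± 21.0 FPKM in IVF blastocysts, and EIF4E1B at 171 ± 85.4 and EIF4E at 27.9 ± 28.4 FPKM in 4-cell embryos. EIF4E, the general cap-binding protein, rose by 2.24 ± 0.58 (adjusted p = 0.00971), and by 3.40 without 4-cell library 1. Its relative EIF4E2 rose by 1.09 ± 0.36 (adjusted p = 0.0286), a call that was lost without any 1 of 4-cell libraries 2 and 3 and IVF blastocyst libraries 1 and 3, with values from 0.85 to 1.61 over all libraries left out.

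The relatives of CPEB1 and BTG4 were not called higher in IVF blastocysts with all libraries in the fit. In IVF blastocysts CPEB1 was at 0, and CPEB2, CPEB3 and CPEB4 were at 0.734 ± 0.167, 0.687 ± 0.255 and 1.14 ± 0.179 FPKM. In 4-cell embryos CPEB1 stood at 172 ± 35.3 FPKM, and CPEB2, CPEB3 and CPEB4 at 1.67 ± 1.06, 2.48 ± 1.93 and 5.39 ± 3.32 FPKM. CPEB4 fell by -1.93 ± 0.45 (adjusted p = 0.0061), and those of CPEB2 (adjusted p = 0.12) and CPEB3 (-1.49 ± 0.74, adjusted p = 0.114) did not pass the test. BTG1, an antiproliferative relative of BTG4, also fell, by -1.48 ± 0.41 (adjusted p = 0.0129), which was -0.81 without 4-cell library 1 and no longer called without IVF blastocyst library 3 (adjusted p = 0.0603). BTG2 (0.92 ± 0.96) and BTG3 (-0.51 ± 0.89) did not pass the test with all libraries. In 4-cell libraries 1, 2 and 3 BTG2 had 85.1, 3.31 and 8.52 CPM and BTG3 had 714.5, 68.8 and 26.2 CPM. In IVF blastocysts BTG2 had 41.7, 24.0 and 71.1 CPM and BTG3 had 165.9, 125.1 and 125.9 CPM. For both genes the IVF blastocysts thus lay above 4-cell libraries 2 and 3 and below 4-cell library 1.

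In IVF blastocysts CNOT6L was at 0.277 ± 0.0829 and CNOT6 at 3.17 ± 0.806 FPKM, whereas in 4-cell embryos the pair was close (7.49 ± 2.74 FPKM for CNOT6L and 5.34 ± 1.96 FPKM for CNOT6). The change of CNOT6 was -0.50 ± 0.43 (adjusted p = 0.342). YBX2 lay below YBX1 in every group, at 15.3 ± 6.4 and 338 ± 147 FPKM in 4-cell embryos, and YBX1 rose by 1.75 ± 0.33 in IVF blastocysts (adjusted p = 0.00212). LSM14B likewise lay below LSM14A in every group, at 2.64 ± 2.42 and 121 ± 94.4 FPKM in 4-cell embryos, and the change of LSM14A was -0.97 ± 0.44 (adjusted p = 0.0895). LSM14A had 227 FPKM in 4-cell library 1, against 88.8 and 47.0 FPKM in libraries 2 and 3. Of the 16 relatives measured, 5 rose and 3 fell in IVF blastocysts against 4-cell embryos, against 25.7% and 30.6% of all genes. Without 4-cell library 1, 7 rose and 4 fell, against 32.4% and 33.6% of the 17355 genes then tested.

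**Figure D3:**
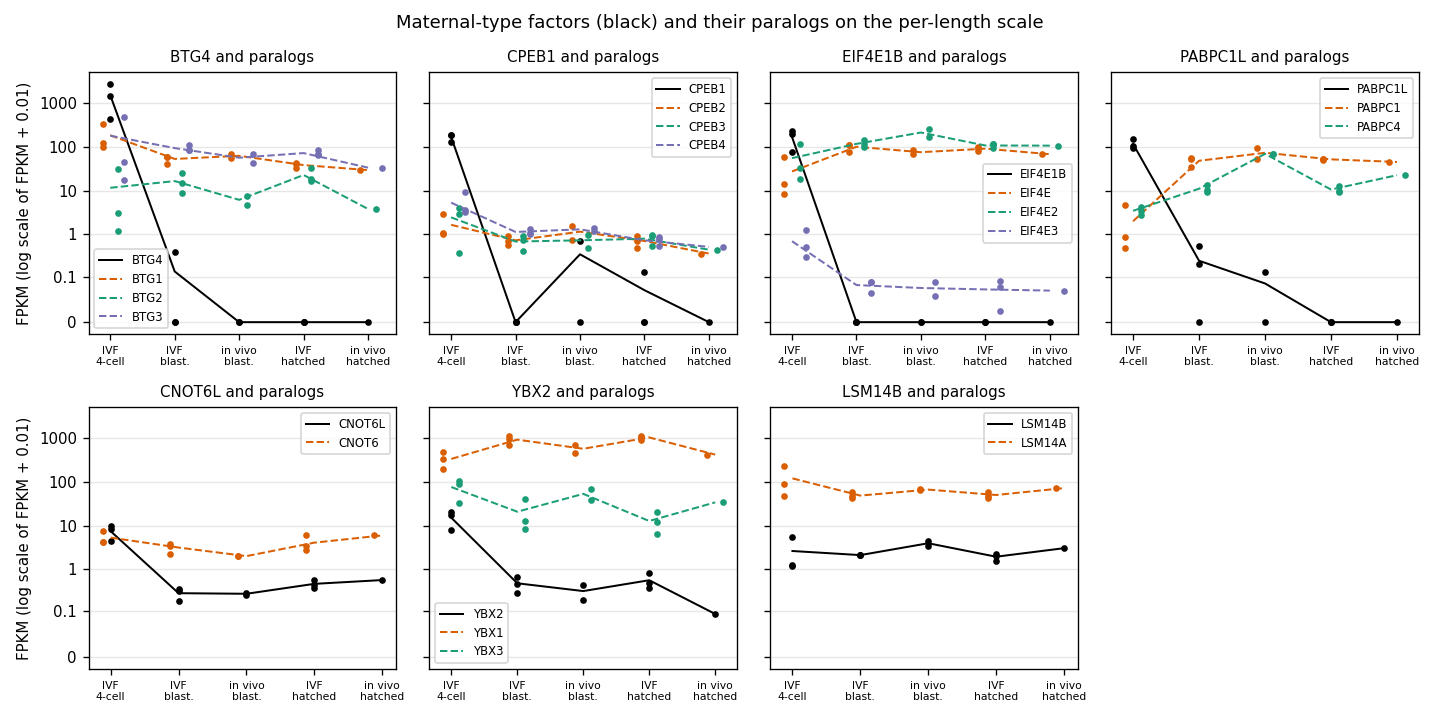
Deposited FPKM of 7 genes (black) and their relatives (coloured) by group, on a logarithmic scale with 0.01 added. Points are libraries and lines join group means, and in vivo hatched blastocysts are shown by library 2 alone, since the FPKM column of the other library was not used. PABPC1L and EIF4E1B lie above PABPC1 and EIF4E in 4-cell embryos and below them in the later groups, and YBX2 and LSM14B lie below YBX1 and LSM14A in all 5 groups.

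The relatives also differed among the 4-cell libraries. BTG3 had 486, 46.6 and 17.9 FPKM in 4-cell libraries 1, 2 and 3, EIF4E had 60.4, 14.7 and 8.49 FPKM and PABPC1 had 4.72, 0.492 and 0.867 FPKM. Of the 16 relatives, 12 were highest in library 1 (75%), against 39.9% of the 14048 genes. So library 1 had the lowest levels of BTG4 (447 FPKM, against 2746 and 1448 FPKM), EIF4E1B (75.8 FPKM, against 240.1 and 198 FPKM) and ZAR1L, and higher levels of most of their general relatives. PABPC1L was not lowest there (109 FPKM, against 94.8 and 152 FPKM). High levels in library 1 were not particular to the relatives. In the lists by role given below, the share highest there was 81.2% for uridylation and 3′ decay and 73.3% for polyadenylation. It was 61.1% for deadenylases, 58.8% for cap binding, 52.9% for decapping and 35.7% for RNA-binding regulators. The part of embryo number, age or RNA quality in this was not tested.

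Genes of message decay and translation were also grouped by role. These lists include some of the relatives already counted, such as BTG1, CPEB4, EIF4E, PABPC1 and YBX1, so the counts partly repeat those above. Of 18 genes of the CCR4-NOT complex and other deadenylases, none rose and 6 fell in IVF blastocysts against 4-cell embryos, read against 25.7% called higher and 30.6% called lower among all genes. CNOT7, a catalytic subunit, had 261 ± 29.8 CPM in IVF blastocysts and 2028 ± 306 CPM in 4-cell embryos (-2.74 ± 0.32, adjusted p = 0.000225). CNOT4, a ubiquitin ligase of the complex, was also lower (-3.03 ± 0.37, adjusted p = 0.000261). Without 4-cell library 1, 5 genes of this list rose and 7 fell, against 32.4% called higher and 33.6% lower among all genes. With libraries scaled by size only, none rose and 9 fell, against 23% and 32.9% of all genes. These shares apply to the same alternatives for the lists that follow.

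Of 18 genes of decapping and decay from the 5′ end, 7 rose and 4 fell. LSM4 (3.57 ± 0.32, adjusted p = 5.8e-05) and LSM2 (2.58 ± 0.37, adjusted p = 0.000609), subunits of Sm-like rings that take part in decay and splicing, rose. LSM7 of the same rings fell by -2.48 ± 0.41 (adjusted p = 0.00126), as did the exonuclease XRN1 (-1.82 ± 0.38, adjusted p = 0.0037). Of 17 genes of uridylation and decay from the 3′ end, 4 rose and 5 fell. SKIV2L, a helicase that feeds the exosome, had 12.9 ± 5.68 CPM in IVF blastocysts and 0.377 ± 0.311 CPM in 4-cell embryos (5.43 ± 0.82, adjusted p = 0.00075), and the exosome subunit EXOSC8 rose by 3.76 ± 0.72 (adjusted p = 0.00243). These values were 6.12 and 4.82 without 4-cell library 1. ZCCHC6, which adds uridines to short tails, fell by -2.68 ± 0.41 (adjusted p = 0.000847), and EXOSC3 fell by -1.48 ± 0.34 (adjusted p = 0.00572). Without 4-cell library 1, 8 genes of this list rose and 5 fell.

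Of 15 genes of polyadenylation and tail binding, 5 rose and 3 fell, and with libraries scaled by size only 3 rose and 3 fell. Besides PABPC1, the cleavage and polyadenylation factor CPSF3 rose by 2.01 ± 0.38 (adjusted p = 0.0024). PABPN1L, an embryonic poly(A)-binding protein, had no count in IVF blastocysts and 224 ± 145 CPM in 4-cell embryos, a level at least 2850-fold lower in IVF blastocysts (adjusted p = 0.00105), and PABPN1 fell by -1.73 ± 0.33 (adjusted p = 0.00229). Of 18 genes of cap binding and its repression, 9 rose and 2 fell. The repressors EIF4EBP1 (2.66 ± 0.36, adjusted p = 0.000468) and EIF4EBP2 (2.59 ± 0.42, adjusted p = 0.00111) rose. EIF4ENIF1, which holds eIF4E in repressed particles, had 16.5 ± 2.43 CPM in IVF blastocysts and 152 ± 102 CPM in 4-cell embryos (-3.07 ± 0.59, adjusted p = 0.00247, and -2.19 without 4-cell library 3), and EIF4E3 fell by -3.24 ± 0.97 (adjusted p = 0.0188). EIF4E3 lost its call without 4-cell library 2 or any 1 of the IVF blastocyst libraries (-3.52 to -2.43). With libraries scaled by size only, 7 genes of cap binding rose and 6 fell, and without 4-cell library 1 there were 10 and 5.

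Of 30 RNA-binding regulators of message fate, 5 rose and 11 fell. DAZAP1 rose by 2.66 ± 0.40 (adjusted p = 0.000763, and 3.25 without 4-cell library 2), and MEX3B, at 1.15 ± 0.687 CPM in IVF blastocysts and at 0 in 4-cell embryos, was at least 12.9-fold higher (adjusted p = 0.00196). IGF2BP3, which stabilises messages, had 21.3 ± 1.53 CPM in IVF blastocysts and 316 ± 78.2 CPM in 4-cell embryos (-3.68 ± 0.36, adjusted p = 9.72e-05). SAMD4B, a Smaug-type repressor, fell by -3.99 ± 0.43 (adjusted p = 0.000145). Of the regulators, 9 rose and 13 fell without 4-cell library 1.

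**Figure D4:**
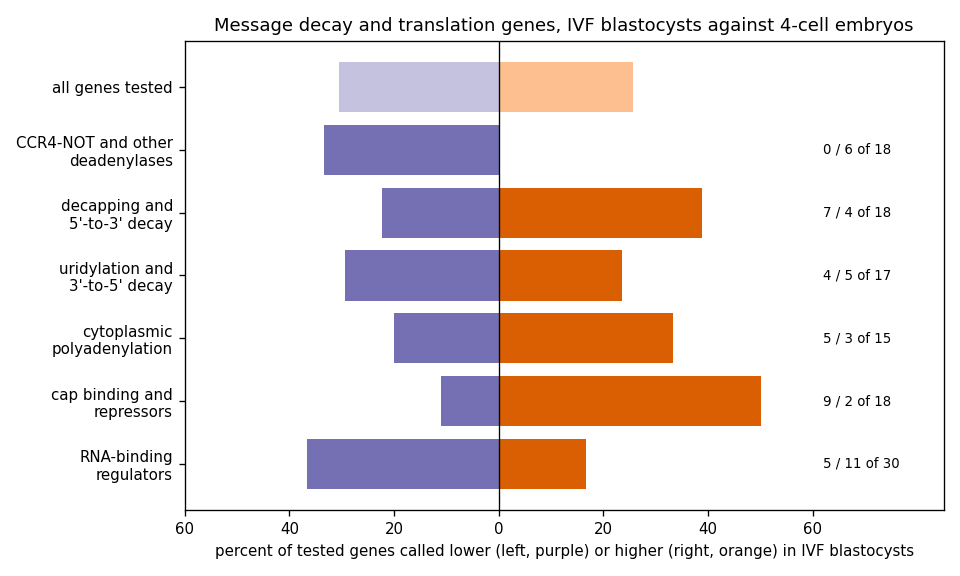
Share of tested genes called lower (left, purple) and higher (right, orange) in IVF blastocysts against IVF 4-cell embryos, for all 16312 genes (pale bars) and 6 lists, with the numbers called higher and lower and the number tested at the right. The deadenylase list has no gene called higher, and the cap-binding list has 9 of 18.

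After the 4-cell stage only 6 of the 9 genes, namely ZAR1, ZAR1L, CNOT6L, YBX2, LSM14B and PABPC1L, passed the filter on low counts in the fit of the 10 blastocyst and hatched libraries. ZAR1 had 327 counts in the unnumbered in vivo hatched library and 660 in library 2 (9.31 and 17.7 CPM), and none in either in vivo blastocyst library. It was at least 171-fold higher in hatched than in unhatched in vivo embryos (adjusted p = 0.0156). ZAR1L had 13 and 32 counts in the in vivo hatched libraries and none in the in vivo blastocysts, at least 7.76-fold higher (adjusted p = 0.0438). These 2 of the 6 genes were called higher and none lower, where 6.96% of the 15528 genes were called higher and 7.39% lower (14.3% in all). The ZAR1 call was lost without in vivo blastocyst library 1 (adjusted p = 0.0627) or in vivo hatched library 2 (adjusted p = 0.0536), and the ZAR1L call without any 1 of the 4 libraries (adjusted p between 0.0566 and 0.153). Neither gene was called in a single fit of all 13 libraries. CPEB1 and PABPC1L, with 47 and 11 counts in in vivo blastocysts, had none in in vivo hatched blastocysts. BRCA2, which lies 73 bases from ZAR1L, had 279 and 259 counts in the in vivo hatched libraries and 333 and 379 in the in vivo blastocysts. Whether reads near the ends of these neighbours were assigned to the right gene could not be checked. The low ZAR1L counts after the 4-cell stage are therefore uncertain.

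In vivo hatched library 2, the only one of its group with an FPKM value used, had 12.9 FPKM of ZAR1 and 0.286 FPKM of ZAR1L. In 4-cell embryos ZAR1L was the higher in every library. Egg markers were not raised alongside: their sum was 1.79 and 1.37 CPM in the in vivo hatched libraries and 4.09 and 5.04 CPM in the in vivo blastocysts.

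SLC10A4, a transporter-family gene that ends 771 bases before ZAR1 (chromosome 8, 38378878 to 38385748), was looked at after the ZAR1 values were seen. It had 1557 and 2545 counts in the in vivo hatched libraries (44.4 and 68.2 CPM) and 120 and 7 counts in the in vivo blastocysts. It rose by 4.93 ± 1.31 with hatching in vivo (adjusted p = 0.0288), and this call was lost without in vivo blastocyst library 2, the unnumbered hatched library or hatched library 2 (4.00 to 8.23 over the 4 libraries left out in turn, the highest without in vivo blastocyst library 1). In 4-cell embryos, where ZAR1 was present, SLC10A4 was at 0 in all 3 libraries. The neighbour on the other side, FRYL, 4161 bases away, did not follow: it had 7.86 and 3.62 CPM in the in vivo hatched libraries and 8.78 and 8.54 CPM in the in vivo blastocysts. Whether reads near the ends of ZAR1 and SLC10A4 were assigned to the right gene could not be checked from gene counts, so the ZAR1 values of hatched embryos are uncertain.

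**Figure D5:**
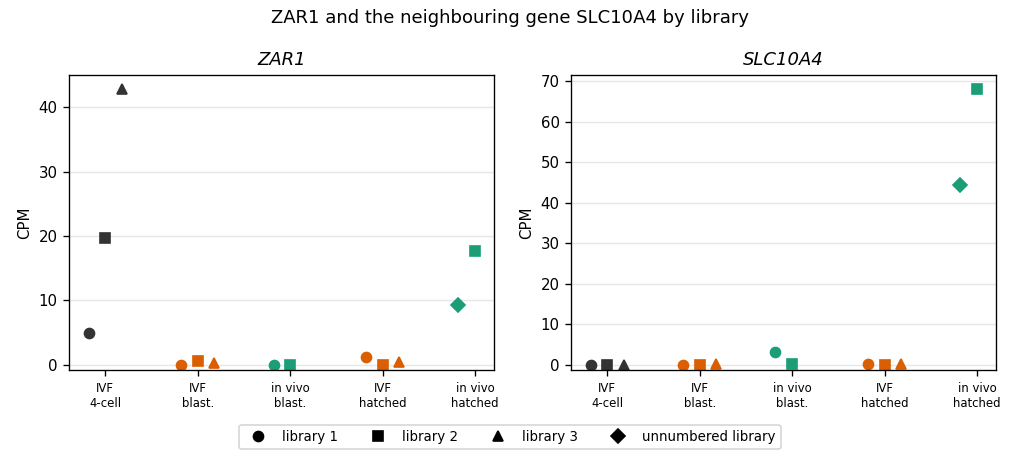
CPM of ZAR1 (left) and the neighbouring gene SLC10A4 (right) in each of the 13 libraries, on linear axes (black for IVF 4-cell, orange for IVF and green for in vivo embryos). ZAR1 is high in 4-cell embryos and in vivo hatched blastocysts, and SLC10A4 in in vivo hatched blastocysts, at 44.4 and 68.2 CPM.

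Hatching after IVF changed none of the 6 genes by the edgeR test, and 1 of them, PABPC1L, had an unadjusted p under 0.05. DESeq2 likewise called 0. This comparison called few genes at all, 7 of 15528 or 0.0451%. ZAR1 had 1.15, 0 and 0.469 CPM in IVF hatched blastocysts and 0, 0.619 and 0.275 CPM in IVF blastocysts, so the groups overlapped. CNOT6L had 4.42 ± 0.895 and 2.64 ± 0.759 CPM (0.77 ± 0.41, adjusted p = 1). The hatching changes of ZAR1 (adjusted p = 0.0572) and ZAR1L (adjusted p = 0.0546) were not called different between IVF and in vivo embryos by edgeR, where 2.79% of all genes were called with a higher change after IVF and 1.93% with a lower one (4.71% in all), but both were called different by DESeq2.

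The comparison of origins asked how embryos made by IVF differ from those grown in vivo at the same stage. Animal, age, day and sequencing run may go with origin and cannot be told apart from it. In blastocysts ZAR1L had 56, 21 and 6 counts after IVF and none in vivo, at least 9.0-fold higher (adjusted p = 0.0445, with 6.09% of all genes called higher and 4.74% lower), and the call was lost without IVF blastocyst library 1 or 2 or either in vivo library. LSM14B had 7.74, 8.05 and 7.83 CPM in IVF blastocysts and 12.8 and 16.6 CPM in in vivo blastocysts. The ranges were apart, and the difference of -0.92 ± 0.29 did not pass in edgeR (adjusted p = 0.0612) but passed in DESeq2 (adjusted p = 0.00444). CNOT6L was at 2.64 ± 0.759 CPM after IVF and 2.58 ± 0.214 CPM in vivo (0.00 ± 0.46).

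In hatched blastocysts none of the 5 genes with a value was called between origins, by edgeR or by DESeq2, where edgeR called 11.8% of all genes (6.96% higher after IVF and 4.88% lower). ZAR1 alone had an unadjusted p under 0.05 in edgeR, and YBX2 and LSM14B had one in DESeq2. ZAR1 had 1.15, 0 and 0.469 CPM after IVF and 9.31 and 17.7 CPM in vivo (-4.56 ± 1.38, adjusted p = 0.0571). The ranges were apart, as they were for LSM14B (7.24 ± 1.21 CPM after IVF and 11.4 ± 0.0861 CPM in vivo, -0.57 ± 0.29, adjusted p = 0.225) and YBX2 (1.54 ± 0.634 and 0.503 ± 0.295 CPM, 1.67 ± 0.85, adjusted p = 0.228). SLC10A4 fell, with 0.309, 0 and 0.138 CPM after IVF and 44.4 and 68.2 CPM in vivo (-8.47 ± 1.34, adjusted p = 0.00289), and kept its call with each library left out in turn (-9.55 to -7.91, the first without IVF hatched library 1).

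Among the relatives the clearest difference between origins was in PABPC4, a cytoplasmic poly(A)-binding protein. It had 25.5, 36.2 and 27.5 CPM in IVF blastocysts and 193 and 199 CPM in in vivo blastocysts, a log2 fold change of -2.75 ± 0.24 (adjusted p = 0.000439) that held its call with each library left out. In hatched blastocysts it had 26.6, 34.5 and 27.2 CPM after IVF and 48.4 and 63.9 CPM in vivo (-0.84 ± 0.24, adjusted p = 0.0434), a call that was lost without in vivo hatched library 2 or IVF hatched library 1 or 3. YBX1 was higher in IVF hatched blastocysts (1628 ± 170.3 CPM after IVF and 737 ± 110.2 CPM in vivo, 1.22 ± 0.25, adjusted p = 0.011), except that it was not called without in vivo hatched library 2. From the decay and regulator lists, PAN2 (-1.36 ± 0.34, adjusted p = 0.0245) and DIS3 (-1.11 ± 0.31, adjusted p = 0.039), a deadenylase subunit and an exosome nuclease, were lower in IVF hatched blastocysts. NANOS1, a translational repressor, was higher there (1.33 ± 0.33, adjusted p = 0.0234). PAN2 had 26.2 CPM in the unnumbered in vivo hatched library and 66.4 CPM in library 2, and DIS3 had 52.6 and 107.3 CPM. Without in vivo hatched library 2 the values were -0.62 for PAN2 and -0.58 for DIS3, and none of PAN2, DIS3 and NANOS1 was called. PAN2 also lost its call without IVF hatched library 1 or 2, DIS3 without any 1 of the IVF hatched libraries, and NANOS1 without the unnumbered library or IVF hatched library 3.

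The genes with the profile most like each of these over the 5 group means were found by the root mean square difference of centred log2(CPM + 1). For BTG4 they were H1FOO (0.202), an egg linker histone, MOS (0.240), the kinase that holds eggs in meiosis, and PADI6 (0.255), a protein of the egg's cytoplasmic lattices. For EIF4E1B the nearest was PABPN1L (0.112), which was at 0 in all 4 later groups and at 224 CPM in 4-cell embryos. For ZAR1 they were CCND2 (0.259), a D-type cyclin, SULF2 (0.288) and MTMR11 (0.305), and these too were present in 4-cell embryos and in vivo hatched blastocysts, with 33.0 and 19.9 CPM for CCND2, 21.0 and 18.9 CPM for SULF2 and 34.0 and 17.0 CPM for MTMR11. For LSM14B they were GLE1 (0.0377), OMA1 (0.0532) and C2H5orf15 (0.0740), each highest in in vivo blastocysts. This likeness is a description over 5 group means. With 0.1 in place of 1 as the added value, 1 of the 9 genes kept 2 or more of its 3 nearest genes.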

How the data were processed

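The authors deposited 1 gene table on Sscrofa11.1 with whole-number read counts, not normalised, and FPKM, a length-scaled value made by the authors, for 13 libraries. Of the 39 columns, 14 were not used, namely the TPM values and the FPKM column of in vivo hatched library 1, which no count column matched by number. Tools named in the submitters' processing notes, without their use, were RSEM, StringTie 1.3.1, HISAT2, Bowtie2 and fastp 0.18.0. How counts were made was not given in the sources used here. Positions are those of RefSeq for that build, which listed 28208 of the genes by gene number. Members and lists were chosen with earlier results of these data known. Per the labels, replicates are separate libraries of pooled embryos. Whether these came from separate animals was not given, so p-values measure the spread between libraries, which may be technical.

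Counts were scaled to CPM by library total. The quasi-likelihood test of edgeR 4.0.16 (R 4.3.3) was used with TMM and its filter on low counts. It was fitted to the 9 IVF libraries (16312 genes) and to the 10 blastocyst and hatched libraries (15528 genes). The threshold was an adjusted p under 0.05. The code was also run on counts simulated from its own fits, which cannot show whether the model suits these data. Replicates differed beyond sampling noise (chi-square of 72.5 or more per degree of freedom). Floors and bounds cover counting error only. 1 in vivo hatched count column had no replicate number and is called unnumbered. Named genes were all members, all their relatives, and from each list the 2 called genes with the smallest p on each side in IVF blastocysts against 4-cell embryos and the 1 between origins in hatched blastocysts. Alternatives were DESeq2 1.42.0, its size factors, no filter, 1 fit of all libraries, leaving out each library and a replicate block. In the fit of blastocyst and hatched libraries the block was run without the unnumbered library. Scaling by library size only was added after seeing the data.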

Additional observations from a re-analysis of the deposited data

Results flagged for a closer look

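For 2 named genes the change with hatching differed between IVF and in vivo embryos by a test of the difference itself (edgeR quasi-likelihood test). Of all genes, 2.79% were called with a higher signed change after IVF and 1.93% with a lower one (4.71% in all). In the lists by role, EXOSC1 and FMR1 were also called with a higher change after IVF. EIF4G2, IGF2BP1 and ZFP36L2 were called with a lower one, and these were not among the named genes. For PABPC4 the log2 change with hatching after IVF minus that in vivo was 1.91 ± 0.35 (adjusted p = 0.0141). With each library left out in turn this difference lay between 1.72 and 2.09 and stayed called. PABPC4 fell with hatching in vivo (-2.04 to -1.74 with each in vivo library left out) and was not called with hatching after IVF. It had 29.4 ± 4.43 CPM in IVF hatched blastocysts and 29.7 ± 5.73 CPM in IVF blastocysts, and 48.4 and 63.9 CPM in in vivo hatched blastocysts and 193 and 199 CPM in in vivo blastocysts. For EIF4EBP2 the same difference was 1.67 ± 0.40 (adjusted p = 0.0401), and this call was lost with each of the 10 libraries left out (1.42 to 1.82). EIF4EBP2 fell with hatching in vivo (-1.52 to -1.18 with each in vivo library left out) and was not called with hatching after IVF. It had 34.1 ± 2.90 CPM in IVF hatched blastocysts and 28.5 ± 8.29 CPM in IVF blastocysts, and 18.2 ± 2.39 CPM in in vivo hatched blastocysts and 45.3 ± 12.4 CPM in in vivo blastocysts.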

How the results depend on the processing

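The number of the 9 genes called against 4-cell embryos, 8 at each later stage, was 8 or 9 under the alternatives run, and 7 where ZAR1 lost its call, which were the left-out libraries named in the report and the replicate block (-5.99, adjusted p = 0.0514, and -4.58, adjusted p = 0.134). Of all genes tested, 38.8% to 66.4% were called either way in these fits. Same-numbered libraries of different groups did not deviate together from their group means (correlations -0.149 to 0.029). With only 2 or 3 libraries per group this cannot show whether the numbers pair them. The block fit of the blastocyst and hatched libraries also left out the unnumbered in vivo hatched library. In vivo hatched library 2 was then alone in its group, so these block results cannot be put down to the block itself. With the replicate block 0 genes were called for hatching in vivo and 0 between origins in blastocysts, and in 1 fit of all 13 libraries also 0 and 0. Leaving out single libraries gave 0 to 1 for hatching in vivo, for origin in blastocysts and for the difference of hatching changes. DESeq2 called 2 for origin in blastocysts and 2 for the difference of hatching changes, where it called 14.6% and 9.2% of all genes. With no filter there were 2 and 2, and 1 (ZAR1) for origin in hatched blastocysts, where 12.7%, 8.59% and 13.2% of all genes were called. Uncalled folds near 0 changed sign. With library size only these were LSM14B against 4-cell embryos (-0.10 and -0.22) and CNOT6L between blastocyst origins (0.04) and in the difference of hatching changes (-0.03). With the block they were CNOT6L between hatched origins (-0.47) and in that difference (-0.38). Leaving out single libraries gave LSM14B -0.06 to 1.04 in IVF hatched against 4-cell embryos, and, with hatching after IVF, LSM14B -0.17 to 0.05, YBX2 -0.10 to 0.59 and ZAR1 -0.36 to 1.98. CNOT6L ranged from -0.17 to 0.21 between blastocyst origins, from -0.14 to 0.37 between hatched origins and from -0.14 to 0.37 in the difference of hatching changes. Over all genes, calls for hatching in vivo numbered 2228 by edgeR, 3741 by DESeq2, 1146 with the block and 101 in the fit of all 13 libraries. For origin in blastocysts they numbered 1681, 3161, 1028 and 7, for origin in hatched blastocysts 1839, 3186, 1145 and 92, for the difference of hatching changes 732, 1987, 347 and 1, and for hatching after IVF 7, 59, 5 and 0 in that order. With no filter the last 2 were 1855 and 162, and origin in blastocysts and hatched blastocysts gave 2749 and 2850. The genes tested numbered 15528 by edgeR, 21593 by DESeq2 and with no filter, 17034 with the block and 18515 in the fit of all 13 libraries. The cause of these shifts was not tested. Counts under 3 per library (0.0764 to 0.0902 CPM) cannot show a change.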
